A study of Zea mays with 9 samples.

Results

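Lipoxygenases insert oxygen into polyunsaturated fatty acids, and 8 maize genes of this family were followed through early kernel development: lox1 (GRMZM2G156861), lox3 (GRMZM2G109130), lox4 (GRMZM2G109056), lox5 (GRMZM2G102760), lox6 (GRMZM2G040095), lox8 (GRMZM2G104843), lox10 (GRMZM2G015419) and lox11 (GRMZM2G009479). They were chosen by identifier among 110028 gene models, and all 8 were present in the count files and matched a RefSeq record. Poly(A) RNA of the inbred B73 had been sequenced on the SOLiD platform. Whole kernels were taken from unpollinated ears (0 days after pollination, DAP) and at 2, 3, 4 and 6 DAP after selfing, and endosperm cut free of embryo and pericarp was taken at 8, 10 and 12 DAP. All plants were greenhouse-grown B73 with no treatment. Each stage was 1 biological sample, and the RNA of 0 DAP went into 2 technical replicate libraries (a and b), which makes 9 libraries in all. The step from 6 to 8 DAP changes tissue and age together, and these cannot be told apart.

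A 9-lipoxygenase (9-LOX) and a 13-lipoxygenase (13-LOX) oxygenate different carbons of linoleic and linolenic acid. The 13-LOX products feed jasmonate synthesis, through allene oxide synthase, allene oxide cyclase and 12-oxophytodienoate reductase, and also the synthesis of green leaf volatiles. The 9-LOX products include other oxylipins that are known in maize for their part in responses to fungi, nematodes and insects. Here lox3, lox4 and lox5 were taken as 9-LOX genes and lox8, lox10 and lox11 as 13-LOX genes. Kept apart were lox1, whose enzyme is known to have dual positional specificity, and lox6, whose enzyme is known to metabolise hydroperoxides.

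Levels are given as v, the CPM on TMM-scaled library sizes. A gene was called higher or lower between stages when it met a rule of size: a 4-fold or greater difference in v + 1, a v of 10 or more at the higher stage, and a 95% interval of the ratio (exact, binomial, given the summed reads) that left out 1. No test between stages is possible with 1 sample per stage, and the intervals cover counting error only. The libraries held from 17716275 to 40145710 counted reads, and a v of 10 rested on 547 reads at 6 DAP and on 56.8 at 12 DAP. Between the technical replicates, 95% of models with a mean v of 10 to 100 differed less than 1.58-fold in v + 1. For a mean v above 100 this limit was 1.33-fold, and for 1 to 10 it was 2.13-fold. The technical spread named below is the 1.58-fold limit unless another is given. A fold of v is larger than the same difference on v + 1, most of all at low levels. These replicates share their RNA, so differences between plants are not in that spread. The marker gene lists were chosen with earlier results of these data known, so they are no independent check of the tissue labels. The 7 genes of endosperm storage and starch had a summed v of 32.1 to 124 in kernels and of 4206 to 138017 in endosperm. Within kernels they were not lowest before pollination, when no endosperm is present. FL2, a zein gene, had v of 55.0 at 0 DAP and 0.0366 at 6 DAP, and sh2 had 20.5 and 2.03. Of the 7, 3 were called lower at 6 than at 0 DAP, and 1, wx1, was called higher, from 1.31 to 18.6. The part of this pattern in the lipoxygenase values was not tested. The summed v of 4 maternal floral genes (zag1, zmm7, zmm8 and zmm29) ranged from 857 to 1239 in kernels and from 54.4 to 129 in endosperm. The 3 matched embryo and oil body genes had a summed v of 0.263 to 1.99 in kernels and of 63.4 to 240 in endosperm. Of these, ole1, an oil body gene, had a v of 62.7, 239 and 174 at 8, 10 and 12 DAP, while lec1 was at 0 in endosperm and vp1 at or under 1.70.

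The lipoxygenases had higher levels in whole kernels than in dissected endosperm, which was also older at every stage. In 8 of 8 members the lowest of the 5 kernel stages lay above the highest of the 3 endosperm stages. This order held for 17.2% of the 44687 detected models and for 23.0% of models with v of at least 10 at 6 DAP. For lox3 (1.58-fold) that gap was no more than the 1.58-fold technical spread. For lox4 (1.49-fold, between v of 6.43 and 9.55) it was within the 2.13-fold spread of models with a mean v of 1 to 10. Together the members had between 253 and 792 CPM of the library total in kernel libraries. At 8, 10 and 12 DAP they had 25.6, 12.2 and 1.78 CPM. These totals are not TMM-scaled, and the TMM factors of the 3 endosperm libraries were 1.07, 0.528 and 0.156. The course of the totals within the endosperm thus depends on the scaling. On v, the 9-LOX genes summed to 18.0, 14.9 and 5.63 there and the 13-LOX genes to 3.50, 4.28 and 2.81. No member reached a v of 10 at an endosperm stage. Within the kernel the family split by time, and the split ran across the enzyme classes. The genes lox4, lox8 and lox10 were highest in unpollinated kernels, where 15.0% of detected models have their highest level, and lox1, lox3, lox5, lox6 and lox11 were highest at 6 DAP, where 16.2% do. For lox4 and lox8 the highest stage was within the technical spread of the next, 2 DAP at 1.24-fold and 6 DAP at 1.37-fold lower.

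**Figure D1:**
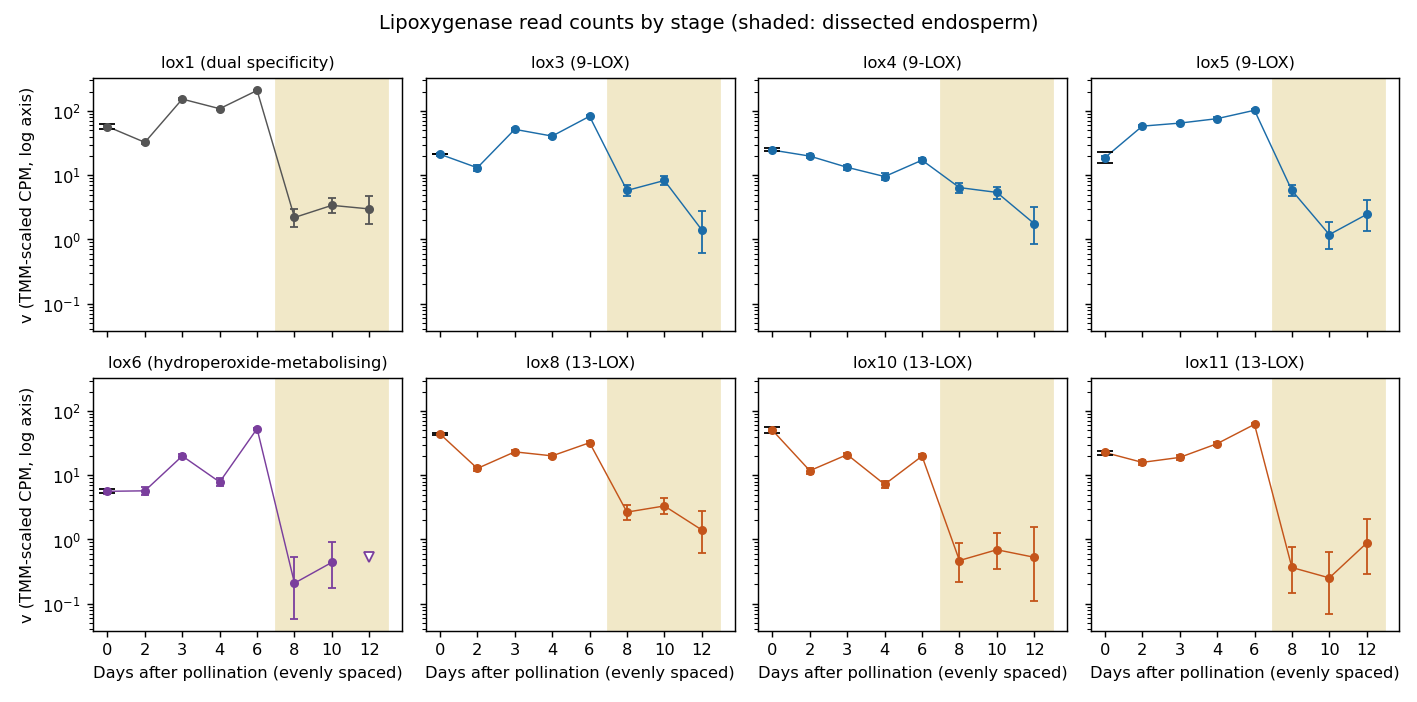
Level of each lipoxygenase (v, the TMM-scaled CPM, on a log axis) at the 8 stages, with exact 95% Poisson intervals of the read count; black ticks at 0 DAP are the 2 technical replicates, and the open triangle for lox6 at 12 DAP is the limit of 3 reads, drawn for 0 reads. All 8 genes lie lower in the shaded endosperm stages than at any kernel stage.

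Among the 9-LOX genes, lox3 and lox4 are neighbours in the genome and are known to be very similar in sequence, and they followed different courses. The gene lox3 had v of 21.2 and 21.3 in the technical replicates of 0 DAP, then 13.1, 52.0, 40.8 and 83.0 at 2, 3, 4 and 6 DAP, and 5.80, 8.30 and 1.41 at 8, 10 and 12 DAP. Its level was thus lowest in kernels at 2 DAP and highest at 6 DAP. The gene lox4 had 26.3 and 23.6 in the replicates of 0 DAP, then 19.9, 13.3, 9.55 and 17.2, and 6.43, 5.41 and 1.76 in endosperm. It was highest before pollination, and its kernel values stayed within 2.59-fold of each other, the narrowest kernel range of the 8 members. The reads of lox3 per read of lox4 were 0.859 at 0 DAP (95% interval 0.801 to 0.922) and 0.657 at 2 DAP, then 3.90, 4.27 and 4.84 at 3, 4 and 6 DAP. At 8 DAP this ratio was 0.902 (95% interval 0.692 to 1.18). How reads that fit both genes were counted is not given in the sources used here, so the separate levels of lox3 and lox4 are uncertain.

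The remaining 9-LOX gene, lox5, is known from maize for its part in defence against insects. It had v of 23.1 and 15.8 in the replicates of 0 DAP, then 58.3, 65.0, 76.3 and 103 at 2, 3, 4 and 6 DAP, and 5.80, 1.19 and 2.46 in endosperm. This was the one member whose v was higher at each successive kernel stage. Neighbouring stages from 2 to 6 DAP differed by at most 1.36-fold, within the 1.58-fold technical spread. At 2 DAP lox5 stood 3.09-fold above 0 DAP (95% interval 2.88 to 3.33), short of the 4-fold rule. Its replicates of 0 DAP differed by 1.46-fold, the widest technical gap among the members.

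Levels of different genes are not compared here, because no transcript lengths were used. The dual-specificity gene lox1 had v of 63.6 and 53.0 in the replicates of 0 DAP, then 32.6, 154, 109 and 210, and 2.20, 3.40 and 2.99 in endosperm. It shared with lox3 the dip at 2 DAP, the high value at 3 DAP and the maximum at 6 DAP. The near-identical gene lox2 was not analysed here, and reads from it could be counted in lox1. The gene lox6 had 6.02 and 5.34 at 0 DAP, then 5.73, 20.0, 7.86 and 53.3, and 4 reads (v of 0.209), 7 reads (0.440) and 0 reads at 8, 10 and 12 DAP. Its kernel levels spanned 9.48-fold, the widest range of the 8 members, with separate high values at 3 and 6 DAP. Against the limit of 3 reads at 12 DAP (a v of 0.528), lox6 was at least 101-fold lower there than at 6 DAP; the exact 95% interval of the same ratio, which is 2-sided, begins at 82.1-fold.

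Among the 13-LOX genes, lox8 and lox10 were highest before pollination. The gene lox8, which is tasselseed1 and supplies jasmonate in the sex determination of the tassel, had 42.5 and 45.4 in the replicates of 0 DAP, then 12.8, 23.2, 20.1 and 32.2, and 2.67, 3.33 and 1.41 in endosperm. The gene lox10, known for its part in green leaf volatile synthesis, had 57.4 and 45.4 at 0 DAP, then 11.8, 21.0, 7.22 and 19.9, and 0.470, 0.692 and 0.528 in endosperm. Both were lower at every later stage than in either replicate of 0 DAP. The gene lox11, a close relative of lox10, had 20.8 and 24.1 at 0 DAP, then 15.9, 19.0, 31.1 and 62.2, and 0.366, 0.252 and 0.880 in endosperm. It was highest at 6 DAP, so these relatives were at their highest at opposite ends of the kernel series.

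**Figure D2:**
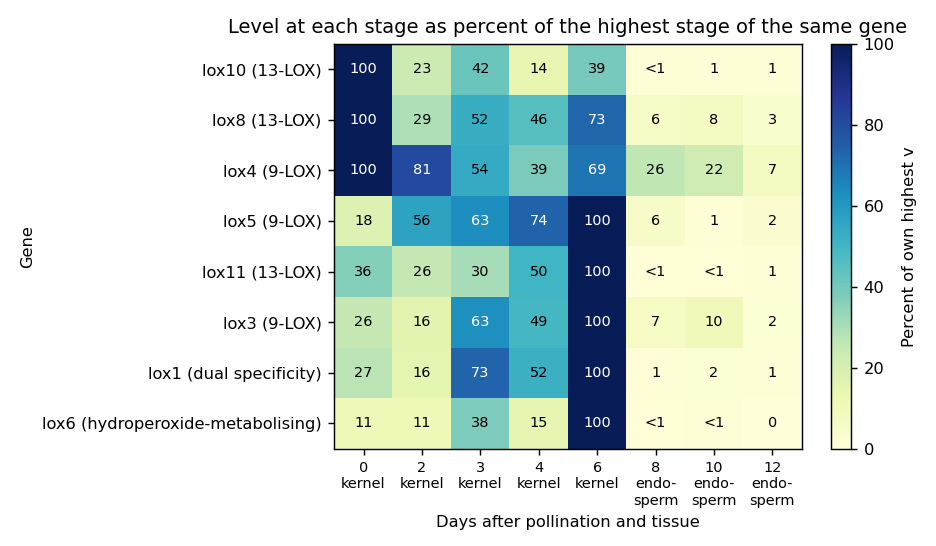
Level of each lipoxygenase at each stage as a percent of the highest stage of the same gene, with rows ordered by time of the highest level; darker cells are nearer to that level. The 3 upper rows have their highest level at 0 DAP and the 5 lower rows at 6 DAP, and each set holds both 9-LOX and 13-LOX genes.

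Between 0 and 2 DAP 1 member was called. In 6 of 8 members v was lower at 2 than at 0 DAP, with a median log2 change over the 8 members of -0.57, beside 0.00 over all detected models; the values of lox4 (1.24-fold) and lox11 (1.43-fold) lay within the technical spread. The 1 member called was lox10, where 0.577% of detected models were called lower; no member was called higher, where 0.387% were. It fell 4.27-fold (95% interval 3.83 to 4.77), a ratio of 4.01 on v + 1 that lies at the threshold, and it was called neither with DESeq2 size factors nor when replicate b alone stood for 0 DAP. The value of lox8 was 3.44-fold lower at 2 DAP (95% interval 3.10 to 3.84), and lox1 and lox3 were 1.76-fold and 1.62-fold lower. On v + 1 the difference of lox3 was 1.58-fold, at the technical spread. No member was called at all of 2, 3 and 4 DAP against 0 DAP, where 0.0917% of models were called in each direction. For lox10 this rested on 3 DAP, and without that stage it was called lower.

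From 2 to 3 DAP, 7 of 8 members had a higher v, and the median log2 change was 0.79, beside 0.01 over all detected models. The gene lox1 was called, rising 4.73-fold (95% interval 4.42 to 5.07), where 0.347% of models were called higher and 0.322% lower. The values of lox3 and lox6 were 3.97-fold (3.56 to 4.44) and 3.50-fold (2.96 to 4.16) higher without passing the rule. From 3 to 4 DAP 6 members were lower and none was called, beside 0.412% of models called higher and 0.233% called lower. Within the technical spread lay lox3, lox4 and lox8 (1.28-fold, 1.40-fold and 1.15-fold lower) and lox5 (1.17-fold higher). The largest differences at that step were in lox10 and lox6, at 2.91-fold and 2.55-fold lower.

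At 6 DAP all 8 members had a higher v than at 4 DAP, with a median log2 change of 0.96, beside 0.06 over all detected models. The gene lox6 rose 6.78-fold (95% interval 5.93 to 7.78) and was the 1 member called, where 0.792% of models were called higher and 0.499% lower. The other 7 differences lay between 1.36-fold for lox5, within the technical spread, and 2.75-fold for lox10. That of lox8 was 1.60-fold, or 1.57-fold on v + 1, which is also within the spread. Against 0 DAP, a comparison added after the values were seen, lox5 rose 5.49-fold (5.17 to 5.84) and lox6 9.48-fold (8.52 to 10.6), where 1.99% of models were called higher and 1.21% lower. The values of lox3, lox1 and lox11 were 3.90-fold, 3.66-fold and 2.74-fold above 0 DAP, and those of lox10, lox4 and lox8 were 2.54-fold, 1.44-fold and 1.37-fold below it. No member stood above all of 2, 3 and 4 DAP by the rule, which 0.515% of models did, and none stood below them, which 0.159% did. For lox6 this rested on its value at 3 DAP, and without that stage it was called higher.

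Between 6 DAP kernels and 8 DAP endosperm, v was lower in all 8 members, and 7 of 8 were called lower. The background for this step was 3.21% of detected models called lower, and 10.2% of the models with v of at least 10 at 6 DAP, a level that all 8 members had; 1.67% of detected models were called higher. The falls were 255-fold for lox6 (95% interval 99.5 to 936) and 170-fold for lox11 (82.4 to 423), followed by lox1 at 95.8-fold (70.8 to 133) and lox10 at 42.2-fold (22.2 to 92.6). They were 17.8-fold for lox5, 14.3-fold for lox3 and 12.1-fold for lox8. The member not called, lox4, was 2.67-fold lower (95% interval 2.21 to 3.25). The median log2 change of the members was -3.88, beside -0.08 over all detected models. In bulk tissue, fewer cells of a type and less RNA per cell cannot be told apart.

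The low level held through the endosperm stages. At 10 DAP 7 members were again called lower than at 6 DAP, where 3.56% of models were lower and 2.25% higher. At 12 DAP all 8 were, lox4 among them at 9.76-fold (95% interval 5.28 to 20.4), where 4.86% of models were lower and 2.46% higher. Among models with v of at least 10 at a stage compared, 9.67% were called lower at 10 DAP and 13.1% at 12 DAP. These comparisons with 6 DAP were added after the values were seen. Between successive endosperm stages no member was called, with or without the minimum level of 10. From 8 to 10 DAP 0.897% of models were called higher and 0.680% lower, and from 10 to 12 DAP 0.667% and 0.510%. Within these stages v of lox5 was 4.86-fold lower at 10 than at 8 DAP (95% interval 2.97 to 8.37), which is 3.10-fold on v + 1. For lox3, v was 5.90-fold lower at 12 than at 10 DAP (95% interval 2.91 to 13.9), which is 3.86-fold on v + 1. At 12 DAP the 8 members had between 0 and 17 reads each, so values at that stage are imprecise.

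The stricter comparison, in which every endosperm stage must be lower than every kernel stage by the rule, was met by lox1 and lox11, where 0.483% of models were called lower and 0.450% higher. Their smallest ratios were 9.60-fold (7.29 to 12.9) for lox1 and 18.1-fold (7.71 to 56.0) for lox11. The genes lox6 and lox10 had smallest ratios of 12.8-fold and 10.4-fold but kernel stages below a v of 10. For lox8, lox5, lox3 and lox4 the smallest ratios were 3.85-fold, 3.25-fold, 1.58-fold and 1.49-fold. With library totals in place of TMM, 5 members met this rule (lox1, lox5, lox8, lox10 and lox11).

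The maternal floral genes moved in the same direction as the lipoxygenases. All 4 were called lower in 8 DAP endosperm than in 6 DAP kernels, and none was at 0 there. As a percent of 6 DAP, zmm7 kept 15.1% at 8 DAP, zag1 8.14%, zmm8 4.53% and zmm29 3.94%. At the same stage lox6, lox11 and lox1 were at 0.392%, 0.589% and 1.04% of their 6 DAP level, below all 4 floral genes. The gene lox10 was at 2.37%, also below them. It rested on 9 reads (42.2-fold lower, 95% interval 22.2 to 92.6), so its order against zmm29 is uncertain. The genes lox5, lox3 and lox8 were at 5.61%, 6.99% and 8.27%, within the range of the floral genes. The gene lox4, at 37.5%, 31.5% and 10.3% at 8, 10 and 12 DAP, was above all 4 floral genes at each of these stages. At 12 DAP it rested on 10 reads (9.76-fold lower, 95% interval 5.28 to 20.4). Its order there against zag1 (7.91%) and zmm7 (6.33%) is therefore uncertain. The part of maternal tissue left on the endosperm in these values was not tested.

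**Figure D3:**
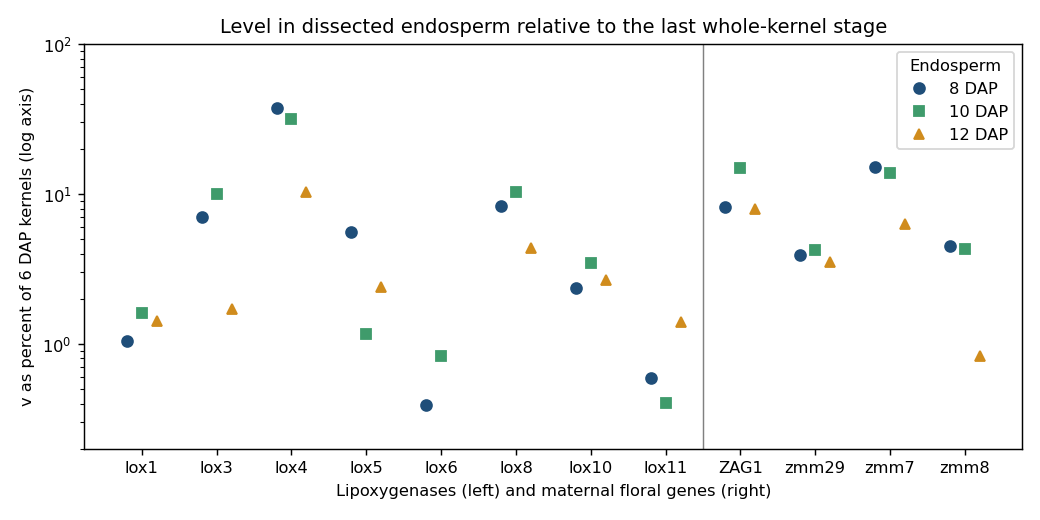
Level in 8, 10 and 12 DAP endosperm as a percent of the 6 DAP kernel level (log axis) for the lipoxygenases and, right of the line, 4 maternal floral genes; lox6 at 12 DAP has 0 reads and is not drawn. Values of lox6, lox11 and lox1 at 8 DAP lie at 0.392% to 1.04%, and lox4 stands highest at 37.5%.

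For the comparison of the enzyme classes, each gene was set against its own level at 0 DAP, since gene length then largely cancels. At 2 DAP the 3 9-LOX genes had a mean log2 change of 0.21, with members between -0.66 and 1.58, and the 3 13-LOX genes one of -1.40, with all 3 below 0 and lox11 nearest to it at -0.49. The means were 0.71 and -0.79 at 3 DAP and 0.53 and -1.10 at 4 DAP. At 6 DAP they were 1.27 and -0.11, a difference of 1.38. The mean change from 0 DAP was therefore higher in the 9-LOX than in the 13-LOX genes from 2 to 6 DAP. The members of the classes overlapped at each of these stages. At 2, 3 and 4 DAP the differences were 1.61, 1.51 and 1.63. All these differences share the sample of 0 DAP, so they are not separate observations. Of the 9-LOX genes at 2 DAP, lox5 was at 1.58, lox3 at -0.66 and lox4 at -0.30. At 6 DAP lox4 (-0.50) lay below lox11 (1.41), and lox11 lay above the 9-LOX mean. Relative to 0 DAP the classes did not overlap in the endosperm: the 9-LOX members lay between -1.79 and -1.54 at 8 DAP and the 13-LOX members between -5.13 and -3.62, with means of -1.68 and -4.29. The dual-specificity gene lox1, in neither class, was at -4.19, within the 13-LOX range. Relative to 6 DAP the classes did overlap at 8 DAP, since lox3 (-3.63) and lox5 (-3.94) were lower than lox8 (-3.18). At 12 DAP the means were -2.98 and -4.32, on 32 and 16 reads in all. There lox3 and lox8 had the same v of 1.41 on 8 reads each. Their order relative to 0 DAP thus comes from their levels at 0 DAP (21.3 and 44.2). With 3 genes a class and 1 sample a stage no test of this difference was made.

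The kernel difference depended on the placing of lox6 and on lox3 and lox4. With lox6 counted as a 13-LOX gene, the 13-LOX mean at 6 DAP was 0.68 and the difference between classes 0.59. With the reads of lox3 and lox4 summed (chosen after the values were seen), the 9-LOX mean at 6 DAP was 1.75 and the difference 1.86. Summed over each class, the 9-LOX v was 64.8 at 0 DAP, 91.3, 130, 127 and 204 at 2, 3, 4 and 6 DAP, and 18.0, 14.9 and 5.63 in endosperm. The summed 13-LOX v was 117, then 40.6, 63.2, 58.4 and 114, and 3.50, 4.28 and 2.81. The 9-LOX sum thus reached 3.14 times its level at 0 DAP by 6 DAP, with lox3 and lox5 above their levels at 0 DAP and lox4 below its own (17.2 against 24.7). The 13-LOX sum was 0.974 times its own, with lox11 above its level at 0 DAP and lox8 and lox10 below theirs. These sums were not divided by gene length, so genes with more reads weigh more in them.

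**Figure D4:**
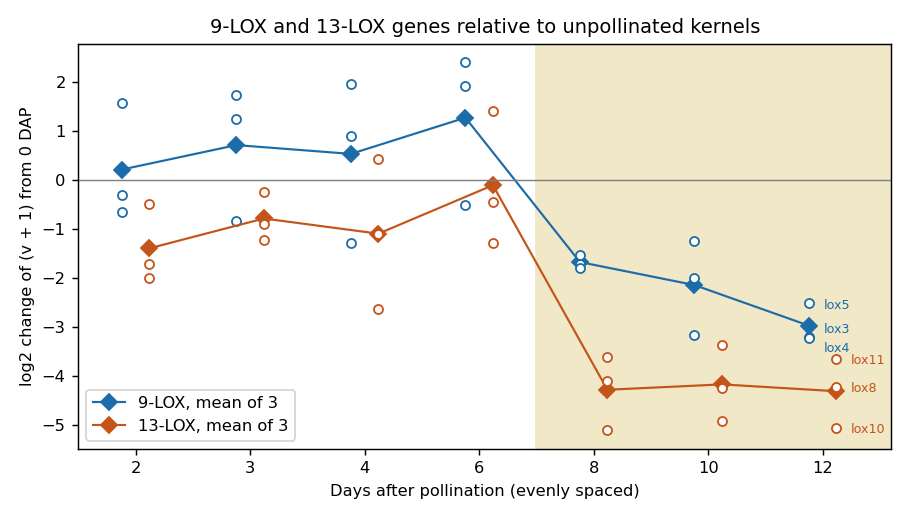
Change of each 9-LOX and 13-LOX gene from 0 DAP, as log2 of v + 1 (open circles), with the mean of each class (diamonds); endosperm stages are shaded. The class members overlap from 2 to 6 DAP and are, relative to 0 DAP, separate at 8, 10 and 12 DAP, where the 9-LOX members lie higher. At 12 DAP lox3 and lox8 had the same v of 1.41 on 8 reads each, so their order there comes from their levels at 0 DAP.

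The likeness of the courses was described by Pearson's correlation of log2(v + 1), with stages as points; every pair shares its libraries and the contrast of kernel with endosperm, so no p-value is given. Over the 8 stages the 28 pairs of members had correlations from 0.74 to 0.97. Over the 5 kernel stages alone, lox1 and lox3 had a correlation of 1.00, lox3 and lox6 0.89 and lox8 and lox10 0.80. The neighbours lox3 and lox4 had -0.49, and the relatives lox10 and lox11 -0.04. In kernels, then, likeness did not always follow enzyme class: lox4 was more like lox10 (0.75) than like lox3 or lox5 (-0.64). The other pairs within a class, lox3 with lox5 and lox8 with lox11, had 0.61 and 0.45. Each of these values has 5 points, and the separate levels of lox3 and lox4 are uncertain.

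Among 1309 named genes with v of at least 10 at a stage, the 3 with the highest correlation to each member over the 8 stages were taken. For lox10 they were TIFY25 (0.995), bHLH116 (0.991) and TIFY28 (0.989); TIFY proteins include the JAZ repressors of jasmonate signalling. TIFY25 had v of 26.0 at 0 DAP, then 5.73, 14.9, 4.49 and 10.7, and at most 0.366 in endosperm. It had the same alternation of low and high values as lox10 at 2, 3, 4 and 6 DAP. For lox8 they were HK1 (0.990), gtr1 (0.981) and MYC2a (0.981), the last a transcription factor of the jasmonate response, with 38.1, 13.5, 23.1, 18.1 and 31.4 in kernels and at most 3.52 in endosperm. For lox3 they were cbp2 (0.986), aos1 (0.975) and SEC14p (0.967), and aos1 encodes an allene oxide synthase. For the other members the same rule gave the following genes. They were ERD3 (0.989), AUX14 (0.977) and Ann7 (0.976) for lox1. They were PP2C2 (0.994), bZIP111 (0.979) and pk8-b (0.975) for lox4, and fae1 (0.983) and CPK21 (0.977) were among those for lox5. They were br2 (0.980), cbp2 (0.970) and pht1 (0.970) for lox6, and CslF6-1 (0.985), AUX14 (0.983) and m18 (0.979) for lox11. AUX14 was thus among the 3 for both lox1 and lox11, with v of 13.7, 19.7, 25.8, 30.8 and 39.1 at 0, 2, 3, 4 and 6 DAP and at most 1.76 in endosperm. PP2C2 had 83.7, 71.7, 49.7, 36.9 and 77.0 in kernels, with its lowest kernel value at 4 DAP as in lox4. These correlations have stages as points and rest largely on the contrast of kernel with endosperm.

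**Figure D5:**
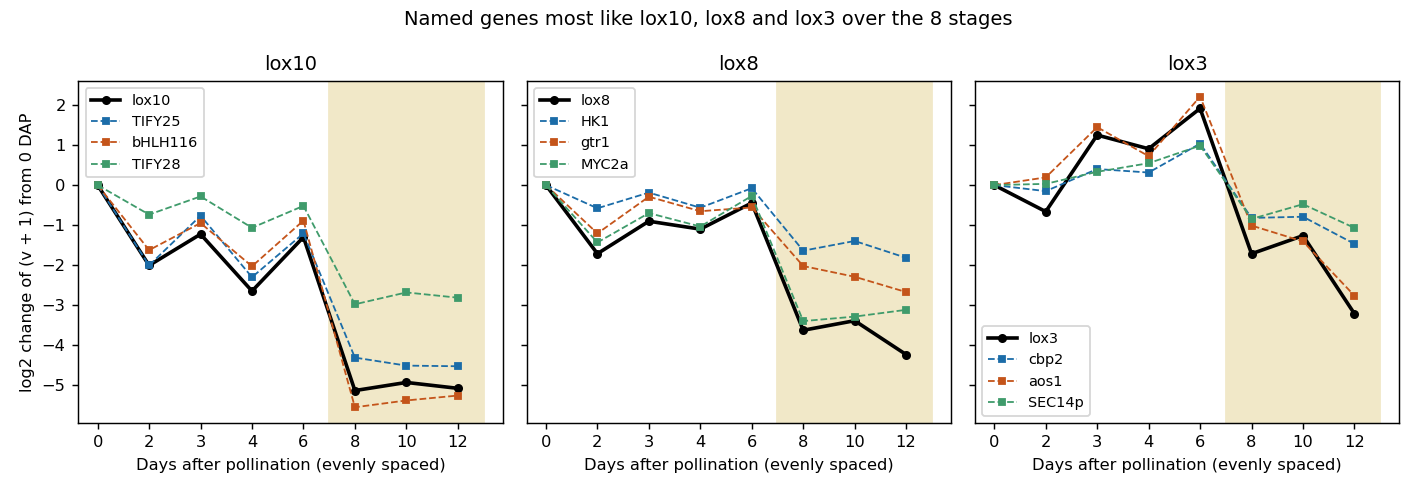
Change from 0 DAP, as log2 of v + 1, of lox10, lox8 and lox3 (black) and of the 3 named genes with the highest Pearson correlation to each (dashed); endosperm stages are shaded. TIFY25 and bHLH116 share with lox10 the low values at 2 and 4 DAP and the higher ones at 3 and 6 DAP.

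Genes of the families that act after the lipoxygenases in jasmonate synthesis were also mostly lower at 8 DAP. Of 12 detected allene oxide synthase, allene oxide cyclase and oxophytodienoate reductase genes, 3 were called lower from 6 to 8 DAP and none higher. The median log2 change of the 12 was -1.42. Of them 10 lay below 0 and 2 above, both with v of at most 0.575 at these stages. The background is the 3.21% of detected models called lower and the 10.2% of those with v of at least 10 at 6 DAP, a level that 6 of the 12 had. The 3 called lower were synthases: aos1, from 135 to 13.6, aos3, from 11.0 to 0.889, and aos4, from 13.4 to 1.88. The level of aos1 was 28.4 at 0 DAP, then 32.6, 79.1 and 47.5 at 2, 3 and 4 DAP, with its higher values at 3 and 6 DAP as in lox1, lox3 and lox6, and it rose between 0 and 6 DAP. The cyclase gene aoc1 kept 27.6, 66.7 and 34.1 in endosperm, against 65.8 to 105 in kernels, and was not called. The reductase gene opr5 went the other way within the endosperm, rising from 6.32 at 8 DAP to 43.6 at 10 DAP. The reductase genes opr7 and opr8, which are known to serve jasmonate synthesis in maize, had v of at most 6.53 and 8.65.

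Of 9 jasmonate signalling genes, mostly TIFY family members, 4 were called lower from 6 to 8 DAP and none higher. The median log2 change was -1.60, and all 9 lay below 0. The background was the same 3.21% and 10.2%, and 6 of the 9 had v of at least 10 at 6 DAP. The 4 called lower were MYC2a, from 31.4 to 2.72, and 3 ZIM genes. These were ZIM18, from 18.2 to 2.67, ZIM28 (TIFY25), from 10.7 to 0.366, and ZIM4 (TIFY28), from 10.8 to 1.15. At 2 DAP 8 of the 9 lay below 0 DAP and ZIM28 was called lower, where 0.577% of detected models were. The gene ZIM34 stayed between 53.2 and 95.8 over all 8 stages. Of the 3 other lipoxygenases that could be matched, lox9 fell from 16.0 at 6 DAP to 0.209 at 8 DAP, and lox7 and lox12 had v of at most 3.11 and 5.16.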

How the data were processed

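Gene-level read counts of 9 SOLiD libraries from maize B73 were analysed. The deposited files hold raw counts, unnormalised whole numbers for 110028 gene models in each library. The submitters' processing notes name bedtools, without version or role. An aligner, a genome build, an annotation and the handling of multi-mapping reads were not given in the sources used here. Per the labels' protocols 1 of 3 biological replicates per stage was sequenced, so p-values between stages were not possible.

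Effective library sizes came from edgeR 4.0.16 (TMM over the 9 libraries) in R 4.3.3. The technical replicates of 0 DAP were summed. DESeq2 1.42.0 gave alternative size factors. Intervals were computed with scipy 1.17.1 under Python 3.11.15, with pandas 2.3.3 and numpy 2.4.6, and plots were drawn with matplotlib 3.10.9. Calling was tested on simulated data. Since PCR copies are counted, intervals and the floor of 3 reads cover counting error only. Models were detected at a v of at least 1 in a library.

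Names came from RefSeq (Zm-B73-REFERENCE-NAM-5.0), used for names and neighbours only. Of 18786 matched models, 2209 had a usable name. A record was found for all 8 members. No sequences or coding lengths were used, so the planned class sums per coding length were replaced by each gene's change from 0 DAP. Genes named beside the members were the 3 most correlated named genes per member and the jasmonate lists, found by symbol. One gene that this rule names is not reported here. The members and lists were chosen with earlier results of these data known. Alternatives covered the scaling, the depth, the technical replicates, the limits of the rule, the stages required and the placing of lox1, lox6, lox3 and lox4.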

Additional observations from a re-analysis of the deposited data

How the results depend on the processing

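The count of 7 members lower at 8 than at 6 DAP, the order of every kernel stage above every endosperm stage in 8 of 8 members, and the stage of the highest level of each member were the same under DESeq2 size factors, library totals, totals without the 100 most counted models, thinned counts and either technical replicate. The 1 member lower at 2 than at 0 DAP became 0 with DESeq2 size factors and ranged from 0 to 1 with a technical replicate left out; lox10 lay at the threshold. Members lower in endosperm than in kernels numbered 2, and 5 by library totals, 4 by totals without the 100 most counted models, 4 with no minimum level and 4 at a ratio of 2. With 3 DAP not required, 1 was lower at 2 and 4 than at 0 DAP and 1 higher at 6 than at 2 and 4 DAP. At a ratio of at least 2, 1 was higher and 2 were lower at 2 DAP, 3 higher at 3 DAP, 2 lower at 4 DAP, 3 higher at 6 than at 4 DAP, 5 higher and 1 lower at 6 than at 0 DAP, 1 higher and 1 lower at 2, 3 and 4 than at 0 DAP, and 1 higher at 6 than at 2, 3 and 4 DAP.

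The mean log2 change of the 9-LOX genes from 0 to 2 DAP was 0.21, but -0.04 with lox1 added, 0.49 from summed v and 0.56 with lox3 and lox4 summed. That of the 13-LOX genes was -1.40, and -1.04 with lox6 added. Their difference of 1.61 was 1.25, 2.00 and 1.96 with lox6 added, from summed v and with lox3 and lox4 summed. From 0 to 6 DAP the 9-LOX mean of 1.27 was 1.64 from summed v and 1.75 with lox3 and lox4 summed, and the 13-LOX mean of -0.11 was -0.33 by library totals and 0.68 with lox6 added. Their difference of 1.38 was 0.59 with lox6 added and 1.86 with lox3 and lox4 summed. From 6 to 8 DAP the 9-LOX mean of -2.95 was -3.31 by library totals, -3.17 without the 100 most counted models, -3.73 with lox1 added, -3.43 from summed v and -3.44 with lox3 and lox4 summed. The 13-LOX mean of -4.18 was -4.57, -4.56, -4.51 and -4.68 by library totals, without the 100 models, with lox6 added and from summed v. Their difference of 1.23 was 0.45 with lox1 added, 1.55 with lox6 added and 0.74 with lox3 and lox4 summed. These moves follow from which genes are counted or how libraries are scaled.

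No paired analysis was possible because each stage has 1 biological sample. The class sums per coding length were not run. At 12 DAP 3 reads correspond to a v of 0.528, which limits what can be seen of the members there.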
